A study of Rattus norvegicus with 12 samples.

Results

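The question was whether the effect of sorafenib on gene expression in the rat heart differed between 14 and 28 days of daily dosing. For every gene, sorafenib minus water was taken at day 28 and at day 14, and the difference between the days is the first minus the second. All 12 of the 12 libraries of the series entered this comparison, 3 in each of 4 groups. The animals were wild-type male SD rats, which received 50 mg per kg of sorafenib or an equal volume of deionized water each day for 14 or 28 days, and RNA came from the heart. Treatment length, the age of the animals and the count table of each day go together in this design and cannot be told apart. Whether the libraries stem from different rats is not said in the labels, and every p-value here reflects the spread among libraries, which may be technical.

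Sorafenib blocks RAF kinases and receptor tyrosine kinases of the vascular endothelial and platelet-derived growth factor families. In the heart these receptors act mainly in endothelial cells and in pericytes, the mural cells of small vessels. Cardiac muscle draws most of its energy from fatty acids, which capillary endothelium takes up from the blood, and its gene expression also follows the circadian clock. RBM20, named in the title of the series, is a splicing factor of cardiac muscle that acts on titin and other transcripts. Gene counts do not show splicing.

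The libraries of day 14 held 13746366 to 18534816 counts each, and 5 of those of day 28 held 16785038 to 26403196. CPM is a gene's share of the library's counts, scaled per library. Sorafenib day 28 replicate 3 held 1036483 counts, so that 1 count equals 0.965 CPM of its raw total and 0.836 CPM in the normalized levels below. This library had counts in 16908 genes, against 21899 to 22748 elsewhere. It stood alone on the first principal component (34.9% of the variance), and sorafenib day 14 replicate 5 and water day 28 replicate 4 lay at the ends of the second (20.4%). The mitochondrial ribosomal RNA mt-Rnr2 took 1.31% of counts in sorafenib day 28 replicate 2 and at most 0.205% elsewhere. Some of the results that rest on these libraries are given with and without them. Cardiac muscle defined the tissue in every library: Myh6, the fast myosin heavy chain, was at 16290 to 36590 CPM and Ttn, titin, at 61380 to 124400 CPM. Fewer cells of a type and less RNA per cell cannot be told apart in bulk RNA.

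No gene passed the test of the difference. Of 18174 genes tested with edgeR's quasi-likelihood test, 0 (0.0%) had a Benjamini-Hochberg adjusted p below 0.05, and the smallest adjusted p was 0.717, shared by 8 genes. At an unadjusted p below 0.05 there were 803 genes (4.42%), of which 410 (2.26%) had a positive difference and 393 (2.16%) a negative one. A flat distribution of p-values would put 909 genes there. In the same fit, 1846 genes had an unadjusted p below 0.05 for the sorafenib effect at day 14 and 3486 at day 28, and the adjusted threshold was passed by 4 genes (0.022%) and 53 genes (0.292%). The error limits what could be seen: among the 11730 genes with a mean of at least 5 CPM, the median standard error was 0.29 on the log2 scale for the difference, and the median 95% interval reached 0.61 to either side, a factor of 1.53. Another tool, DESeq2, called 9 genes on the same counts, 3 with a positive and 6 with a negative difference. They were Ngdn, Slc33a1 and Erich6, and Fabp4, Rbp7, Pgf, Cdo1 and 2 unnamed loci.

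**Figure D1:**
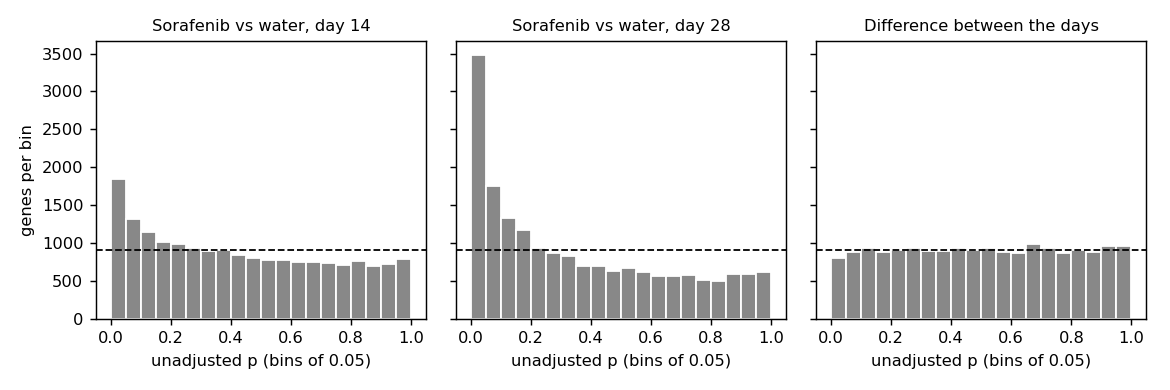
Number of genes (vertical axis) per bin of 0.05 of the unadjusted p (horizontal axis) for the sorafenib effect at day 14, at day 28 and for the difference between the days. The dashed line marks the 909 genes per bin of an even distribution: the lowest bin holds 1846 genes at day 14, 3486 at day 28 and 803 for the difference.

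The 53 genes called at day 28 included 31 that were higher and 22 that were lower with sorafenib. At day 14, 50 of them had an effect of the same sign, and in 52 that effect was smaller in size. They were chosen for a large day 28 effect, which by itself makes the other day look smaller, so the 37 of them with an unadjusted p below 0.05 for the difference are given as a count only. Over all genes tested, the effects at both days had the same sign in 69.1% of genes, with Pearson's r of 0.384 and Spearman's rho of 0.459 across genes, which are not independent replicates. The days share no library. Leaving out single libraries gave r of 0.215 to 0.373. Among the 803 genes with an unadjusted p below 0.05, the effects had opposite signs in 579, the same sign with a larger size at day 28 in 186, and the same sign with a larger size at day 14 in 38. These genes were selected on the gap between the 2 effects, which itself favours opposite signs, so nothing is read from this split. For 58 genes (0.319%) all sorafenib libraries lay on one side of all water libraries at day 14 and on the other side at day 28, and for 1053 genes (5.79%) they lay on the same side at both days.

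**Figure D2:**
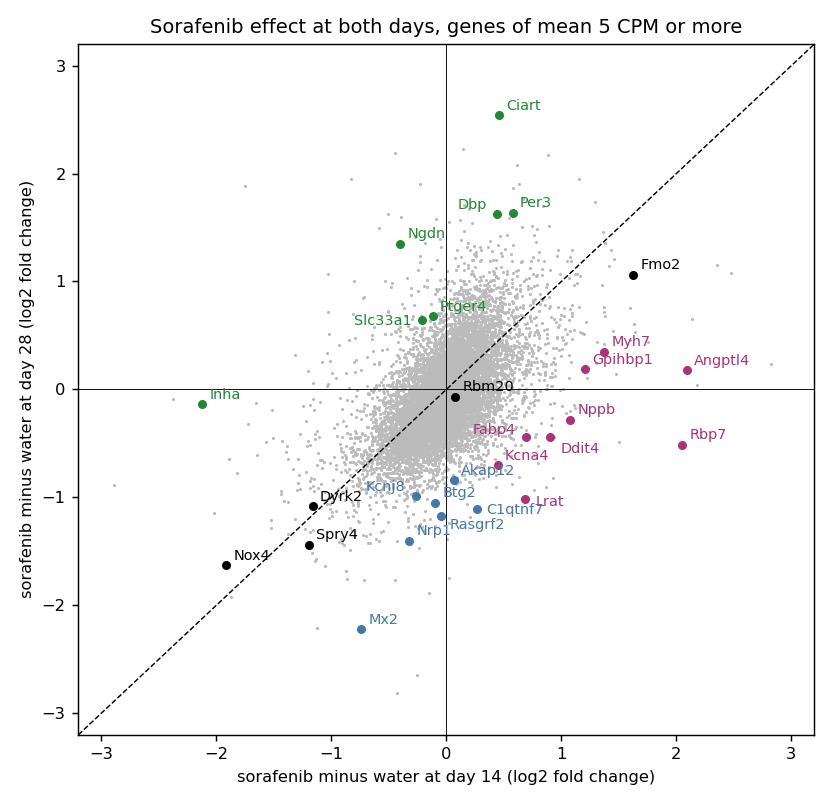
Log2 fold change of sorafenib against water at day 14 (horizontal) and day 28 (vertical) for genes with a mean of at least 5 CPM, 3 of which lie outside the axes. Genes on the dashed line have equal effects: Dyrk2, Spry4 and Nox4 (black) lie near it, Fabp4, Rbp7 and Myh7 (purple) right of it, Nrp1 and Akap12 (blue) below it, and Ngdn and Ciart (green) above it.

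The hearts themselves differed between the days. In water libraries 1544 genes (8.5%) passed the threshold between day 14 and day 28, 1054 higher and 490 lower at day 28. In sorafenib libraries 604 genes (3.32%) did, 412 higher and 192 lower. Both sets shared 399 genes, all of which moved in the same direction. A gene can therefore show a difference between the days because its water level moved, its sorafenib level moved, or both, and the levels in each group are given below.

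Among the genes that the rule named with a negative difference, Fabp4 and Rbp7 had the smallest p. Fabp4 (chr2:91580858-91585578, build mRatBN7.2) encodes a fatty acid binding protein of endothelium and fat cells. Its level was 132, 131 and 119 CPM with water and 226, 161 and 230 CPM with sorafenib at day 14. At day 28 it was 331, 316 and 304 CPM with water and 262, 220 and 216 CPM with sorafenib. Every sorafenib library lay above the water libraries at day 14 and below them at day 28. The water level rose between the days by 1.32 on the log2 scale (edgeR adjusted p = 0.00055), and the level with sorafenib differed by 0.18 (adjusted p = 0.592). The sorafenib effect was 0.70 (SE 0.16) at day 14 and -0.44 (SE 0.16) at day 28, a difference of -1.14 (95% interval -1.63 to -0.64, edgeR adjusted p = 0.717, DESeq2 adjusted p = 0.00905).

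Rbp7 (chr5:159889723-159894338), a retinol binding protein, followed the same course. Water libraries held 6.31, 3.87 and 3.09 CPM at day 14 and 17.5, 14.9 and 11.8 CPM at day 28. Sorafenib libraries held 22.8, 11.1 and 21.3 CPM at day 14 and 15.5, 8.36 and 5.92 CPM at day 28. The groups were apart at day 14 and overlapped at day 28, where the shallow library's value rests on 10 counts. The difference was -2.56 (interval -3.68 to -1.44, edgeR adjusted p = 0.717, DESeq2 adjusted p = 0.0163). Lrat, which esterifies retinol, had a difference of -1.70 (interval -2.68 to -0.71), and its exons overlap another locus, which makes its counts less certain.

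Gpihbp1 anchors lipoprotein lipase on capillary endothelium. It measured 18.7, 18.3 and 13.1 CPM with water and 30.5, 39.1 and 46.3 CPM with sorafenib at day 14, with no overlap. At day 28 the water libraries were at 40.2, 28.8 and 21.8 CPM and enclosed the sorafenib libraries at 33.3, 36.0 and 34.8 CPM. Its difference was -1.02 (interval -1.70 to -0.35, adjusted p = 0.999). Angptl4, an inhibitor of lipoprotein lipase and a target of PPAR factors, had a difference of -1.91 (interval -3.52 to -0.30). Its effect was 2.09 (SE 0.53) at day 14 and 0.18 (SE 0.54) at day 28.

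Endothelial markers were of mixed sign. Of the 19 genes tested 13 had a negative difference and 4 an unadjusted p below 0.05, all negative: Fabp4, Gpihbp1, Rgcc and Ly6c. Such counts, here and in the lists below, stand beside 4.42% of all genes tested with an unadjusted p below 0.05, 2.26% positive and 2.16% negative. Of all genes tested 47.9% had a positive difference. The list's median difference was -0.17, against -0.02 over all genes, and -0.30 to -0.10 with single libraries left out (replicates 3 and 2 of water day 14). Ly6c differed from the others in course: its effect was 0.02 (SE 0.27) at day 14 and -1.24 (SE 0.31) at day 28. The summed level of the list was 2750 to 3230 CPM in water and 2760 to 3280 CPM in sorafenib libraries at day 14, and 3190 to 3720 and 3180 to 3250 CPM at day 28.

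Ligands and receptors of the vascular growth factor family were the next group. Pgf, placental growth factor, had the smallest p of all genes tested, at low counts. Its level was 1.20, 0.712 and 0.380 CPM with water and 2.70, 2.70 and 3.51 CPM with sorafenib at day 14, then 3.58, 3.35 and 4.64 CPM with water and 2.07, 2.51 and 2.06 CPM with sorafenib at day 28. The groups were apart at both days, in opposite order, and the shallow library holds 3 counts. The difference was -2.81 (interval -3.97 to -1.64, edgeR adjusted p = 0.717, DESeq2 adjusted p = 0.00905). Pgf lies below the mean of 5 CPM set for naming genes and was added after its value was seen, as were Cdo1 and Erich6.

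Nrp1, a co-receptor for these ligands, measured 445, 506 and 458 CPM with water and 356, 349 and 422 CPM with sorafenib at day 14. At day 28 it had levels of 364, 358 and 486 CPM with water and at 167, 194 and 101 CPM with sorafenib. Sorafenib libraries were lower at both days. The effect of -1.40 (SE 0.22) at day 28 passed the threshold (adjusted p = 0.029), that of -0.32 (SE 0.22) at day 14 did not (adjusted p = 0.645), and the difference between them was -1.08 (interval -1.74 to -0.42, adjusted p = 0.999). Kdr, the main receptor for VEGF and a target of the drug, had effects of -0.55 (SE 0.20) and -0.91 (SE 0.21) and a difference of -0.36 (interval -0.99 to 0.27). Ret, another receptor kinase that the drug inhibits, had effects of -0.67 (SE 0.20) and -1.34 (SE 0.23), the latter past the threshold (adjusted p = 0.0306), and a difference of -0.67 (interval -1.31 to -0.04). In the list of VEGF, apelin and tip cell genes 14 of 22 differences were negative, with a median of -0.25 and Pgf and Nrp1 at an unadjusted p below 0.05. That median was -0.09 without sorafenib day 14 replicate 5 and -0.32 without the shallow library.

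A second set of genes had little sorafenib effect at day 14 and lower levels with sorafenib at day 28. Akap12 (chr1:40730123-40819863), a scaffold for protein kinases A and C, was at 33.9 to 40.3 CPM with water and 31.7 to 43.5 CPM with sorafenib at day 14. At day 28 it measured 102, 118 and 92.5 CPM with water and at 50.8, 63.5 and 61.6 CPM with sorafenib. The groups overlapped at day 14 and were apart at day 28, and the water level rose between the days by 1.51 (adjusted p = 0.00022). Its difference was -0.91 (interval -1.38 to -0.43, adjusted p = 0.933). Btg2, an antiproliferative immediate early gene, behaved likewise: 155 to 187 CPM with water and 77.5 to 89.5 CPM with sorafenib at day 28, with overlapping groups at day 14 and a difference of -0.95 (interval -1.47 to -0.43). For these genes the water libraries moved more between the days than the sorafenib libraries did.

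In 3 further genes of this set it was the sorafenib level that moved most. Rasgrf2, an exchange factor for RAS proteins, was at 30.8 to 46.6 CPM in sorafenib libraries at day 14 and 8.36 to 12.3 CPM at day 28, against 21.1 to 25.8 CPM with water at day 28. C1qtnf7, a secreted protein of the C1q and TNF related family, was at 13.9 to 17.0 CPM with sorafenib at day 14 and 4.18 to 4.55 CPM at day 28, against 9.43 to 9.90 CPM with water. Kcnj8, the pore subunit of the ATP-sensitive potassium channel of pericytes, was at 26.2 to 34.0 and then 14.8 to 17.6 CPM, against 28.9 to 34.4 CPM with water at day 28. At day 28 the shallow library held 10, 5 and 21 counts of Rasgrf2, C1qtnf7 and Kcnj8. Their differences were -1.12 (interval -1.73 to -0.52), -1.37 (-2.05 to -0.70) and -0.73 (-1.23 to -0.23), and none passed the adjusted threshold. Kcna4, a transient outward potassium channel of cardiac muscle, had effects of 0.45 (SE 0.22) and -0.71 (SE 0.24) and a difference of -1.15 (interval -1.84 to -0.46).

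All 14 measured markers of pericytes and smooth muscle had a negative difference, with a median of -0.53 and an unadjusted p below 0.05 for Kcnj8, Vtn and Rgs5. Of all genes tested 47.9% were positive. The median effect of these markers was 0.02 at day 14 and -0.34 at day 28. Their mean lay above the day's water mean by 0.05 to 0.34 in sorafenib libraries of day 14 and below it by values of -0.06 to -0.63 in those of day 28. Water libraries ranged from -0.16 to 0.10 at day 14 and from -0.06 to 0.11 at day 28, so sorafenib day 14 replicate 6 at 0.05 lay among them and the shallow library at -0.06 lay next to the lowest. Leaving out any single library left the median between -0.66 and -0.35. The most abundant member was Des, which is also on the sarcomere list. Summed levels overlapped at both days: 2240 to 2310 CPM with water and 2120 to 2510 CPM with sorafenib at day 14, and 2780 to 3280 and 2500 to 2840 CPM at day 28. Rgs5, a regulator of G protein signalling in pericytes, was at 108 to 119 CPM with water and 67.7 to 75.6 CPM with sorafenib at day 28, and at 65.8 to 84.6 and 55.8 to 74.1 CPM at day 14. For fibroblast markers 13 of 14 differences were negative with a median of -0.43, and Dcn, decorin, was at -0.80 (interval -1.59 to 0.00). Without water day 28 replicate 4, where the summed level was 8840 CPM against 5540 and 6150 CPM in the other water libraries of that day, the median was -0.14, and without the shallow library it was -0.70.

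**Figure D3:**
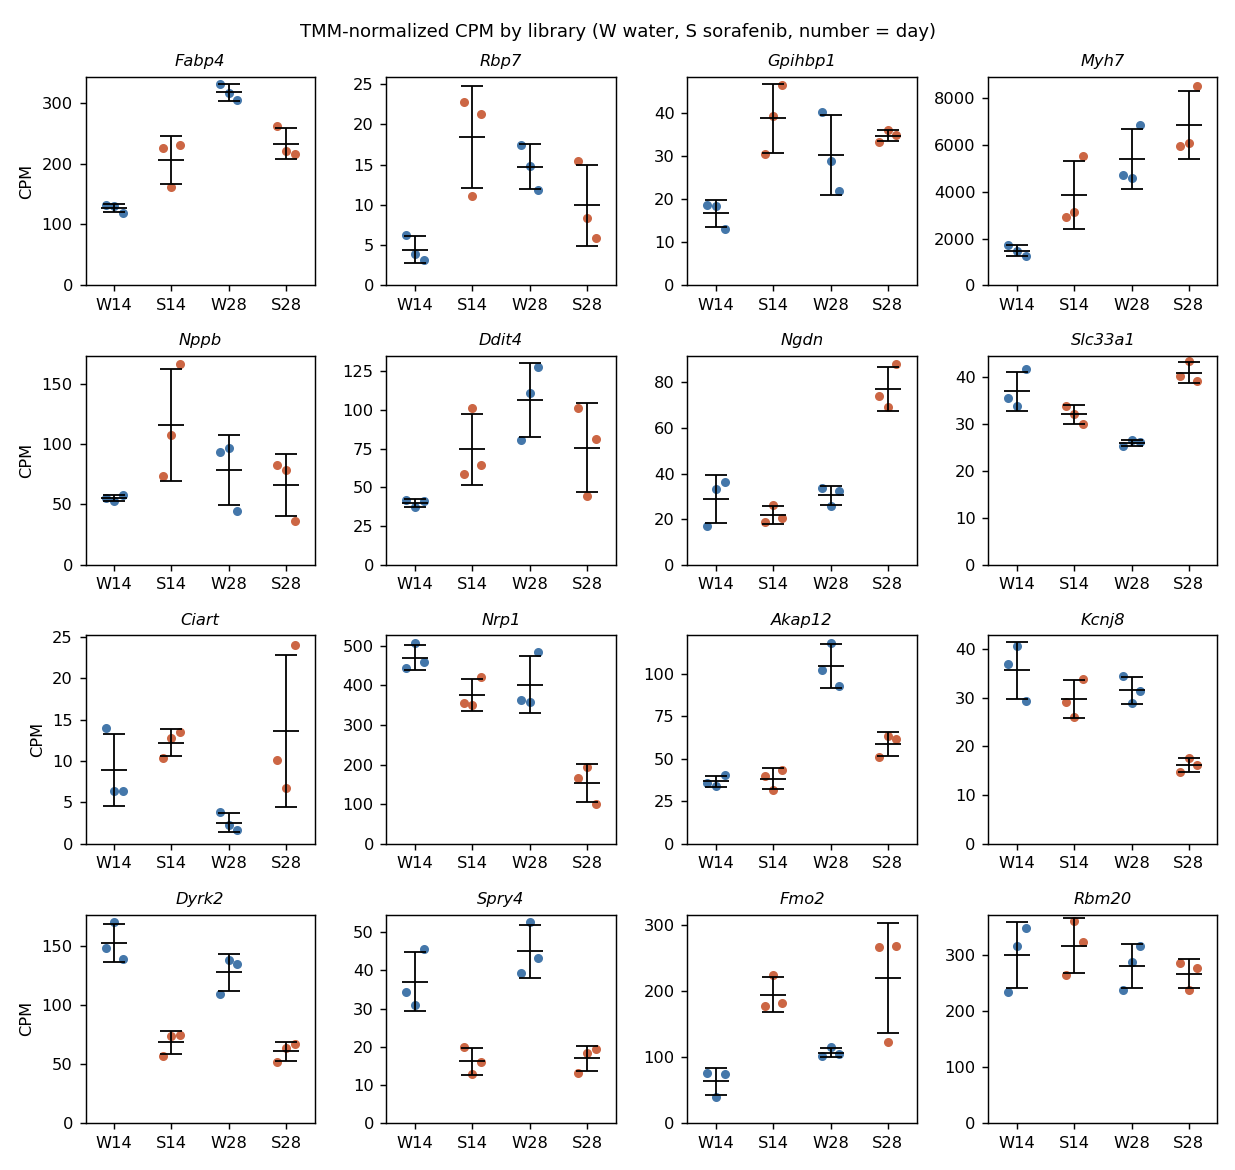
CPM per library for 16 genes in water (blue) and sorafenib (red) libraries at day 14 (W14, S14) and day 28 (W28, S28), with mean and SD of 3 libraries in black. Fabp4 and Rbp7 are higher with sorafenib at day 14 and not at day 28, Nrp1, Akap12 and Kcnj8 are separated mainly at day 28, and Dyrk2 and Spry4 are lower with sorafenib at both days.

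Ngdn led the genes with a positive difference. It encodes neuroguidin, a protein with roles in ribosome assembly and translation (chr15:28489950-28497286). Its level was 16.8, 33.4 and 36.1 CPM with water and 18.5, 26.1 and 20.5 CPM with sorafenib at day 14, and 33.6, 25.7 and 32.1 CPM against 73.9, 69.4 and 87.9 CPM at day 28. The groups overlapped at day 14, and at day 28 every sorafenib library was above every other library of the series. The difference was 1.75 (interval 1.02 to 2.48, edgeR adjusted p = 0.717, DESeq2 adjusted p = 0.00905). Without water day 14 replicate 2, whose level of 16.8 CPM was the lowest of its group, Ngdn alone passed with a difference of 2.04 (adjusted p = 0.0198).

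Slc33a1, the acetyl-CoA transporter of the endoplasmic reticulum, had levels of 35.5, 33.8 and 41.7 CPM with water and 33.9, 32.2 and 30.0 CPM with sorafenib at day 14. At day 28 water libraries were at 25.2, 26.5 and 26.1 CPM and sorafenib libraries at 40.1, 43.5 and 39.1 CPM, with no overlap. Its difference was 0.85 (interval 0.45 to 1.25, edgeR adjusted p = 0.85, DESeq2 adjusted p = 0.0489). Ptger4, a receptor for prostaglandin E2, had a like pattern: 19.8 to 23.2 CPM with water and 33.4 to 36.0 CPM with sorafenib at day 28, and overlapping levels at day 14. Ero1b, an oxidase of the endoplasmic reticulum, had sorafenib libraries at 24.0 to 30.6 CPM below water libraries at 31.2 to 34.2 CPM at day 14, and at 28.7 to 29.6 CPM above water at 19.1 to 22 CPM at day 28. For Slc33a1 and Ero1b water levels fell between the days (adjusted p = 0.0273 and 0.00965).

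Zfp617, Ubxn2b and Tmco4 each had overlapping groups at day 14 and sorafenib libraries above all water libraries at day 28. The shallow library held 12, 20 and 42 counts of them. Their differences were 1.11 (SE 0.29), 1.03 (SE 0.28) and 1.25 (SE 0.35). Inha, the alpha subunit of inhibin, differed in course. It was at 18.3 to 40.4 CPM with water and 4.74 to 7.93 CPM with sorafenib at day 14, and at 9.43 to 17.2 and 8 to 19.6 CPM at day 28, a difference of 1.98 (interval 0.83 to 3.14). Irak2, a kinase of interleukin-1 receptor signalling, had a difference of 1.45 (interval 0.57 to 2.33), and its exons overlap another locus, so it is less certain. The remaining genes that the rule named in the negative direction were Ift43 at -0.87 (interval -1.33 to -0.41), an intraflagellar transport protein that was higher with sorafenib at day 14, and Ddit4 at -1.34 (-2.12 to -0.55), an inhibitor of mTORC1 signalling.

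Genes of myocardial stress were further above water at day 14 than at day 28. The list held 17 measured genes, of which 14 had a negative difference with a median of -0.76 (-0.90 to -0.49 with single libraries left out, the smallest without sorafenib day 14 replicate 7). Its median effect was 0.53 at day 14 and 0.01 at day 28, and Nppb and Myh7 were among the members with an unadjusted p below 0.05. Myh7, the slow myosin heavy chain, measured 1739, 1456 and 1263 CPM with water and 2903, 3120 and 5509 CPM with sorafenib at day 14. The values of day 28 were 4701, 4572 and 6850 CPM with water and 5958, 6057 and 8520 CPM with sorafenib. The groups were apart at day 14 and overlapped at day 28, and the water level rose between the days by 1.85 (adjusted p = 0.00229). Its difference was -1.02 (interval -1.90 to -0.15, adjusted p = 0.999), and its exons overlap other loci.

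Nppb, the precursor of B-type natriuretic peptide, was at 52.5 to 57.7 CPM with water and at 74.0, 108 and 167 CPM with sorafenib at day 14. Water libraries of day 28 held 94.0, 97.1 and 44.8 CPM and sorafenib libraries 83.1, 78.6 and 36.2 CPM. The groups were apart at day 14 and overlapped at day 28, and the difference of -1.36 (interval -2.42 to -0.29) had an adjusted p of 0.999. Nppa, the atrial peptide, ranged from 11.2 to 295 CPM over the libraries, and the interval of its difference ran from -5.39 to 0.23. The glucocorticoid response list had 16 of 19 negative differences with a median of -0.48, which was -0.29 without water day 14 replicate 3 and -0.75 without water day 14 replicate 7. Angptl4, Sult1a1, Ddit4 and Nfkbia of that list had an unadjusted p below 0.05, all negative. Its median effect was 0.54 at day 14 and 0.01 at day 28.

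Rbm20 itself was at 234 to 348 CPM with water and 264 to 361 CPM with sorafenib at day 14, and 238 to 316 and 237 to 286 CPM at day 28. All 4 groups overlapped. Its effect was 0.08 (SE 0.19) at day 14 and -0.07 (SE 0.19) at day 28, and the difference was -0.15 (interval -0.72 to 0.43), so the interval leaves out a fall of the effect by more than 0.72 or a rise by more than 0.43 on the log2 scale. Ttn had a difference of -0.24 (interval -1.20 to 0.72). Both genes overlap other loci. Of the 19 genes of RBM20 and its splicing targets, 14 had a negative difference, the median was -0.21, and 0 had an unadjusted p below 0.05. That median was -0.07 without the shallow library and 0.04 without it and water day 28 replicate 4, but -0.29 without sorafenib day 28 replicate 4. The members of smallest p were Lrrfip1 at -0.41 (interval -0.83 to 0.00) and Mlip at -0.69 (-1.39 to 0.01). In the sarcomere and Z-disc list 22 of 24 differences were negative with a median of -0.33, which became -0.12 without the shallow library and 0.05 without that library and water day 28 replicate 4.

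In 2 lists of energy metabolism every difference was negative, and their medians shrank without some libraries and grew without others. In the third, glycolysis and glucose uptake, 16 of 20 were negative with a median of -0.19, and of -0.02 without water day 28 replicate 4. All 47 measured nuclear genes of oxidative phosphorylation had a negative difference with a median of -0.47, and 3 had an unadjusted p below 0.05: Ndufa2, Ndufb10 and Uqcrb. Over all genes tested, 2.16% had such a p with a negative difference. The median effect of the list was 0.08 at day 14 and -0.44 at day 28. These genes share their libraries, so 47 members are not 47 separate observations. Relative to the water mean of the day, the mean of the list was -0.45, 0.20 and 0.32 in sorafenib libraries of day 14 and -0.38, -0.93 and -0.06 in those of day 28, where the lowest value is that of the shallow library. Water libraries ranged from -0.08 to 0.11 at day 14 and from -0.27 to 0.33 at day 28. Sorafenib and water libraries overlapped at day 14, and at day 28 replicate 4 of sorafenib lay among the water libraries. The median was -0.27 without the shallow library, -0.28 without water day 28 replicate 4 and -0.08 without both, with 35 of 47 negative.

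Ndufb10, a subunit of complex I, was at 20.8 to 26.4 CPM with water and 21.4 to 40.5 CPM with sorafenib at day 14, and at 69.6, 73.6 and 100 CPM against 61.7, 40.1 and 75.5 CPM at day 28. It rose between the days in both water (1.82, adjusted p = 0.000901) and sorafenib libraries (1.05, adjusted p = 0.0335). The 32 genes of fatty acid oxidation and other PPAR alpha targets likewise all had a negative difference, with a median of -0.51 and Angptl4 as the 1 gene with an unadjusted p below 0.05. Their median effect was 0.21 at day 14 and -0.29 at day 28. Acadl, the long-chain acyl-CoA dehydrogenase, was at 936 to 1536 CPM with sorafenib and 961 to 1187 CPM with water at day 14, and at 801 to 1438 and 1341 to 1866 CPM at day 28, with overlap at both days. The median of this list was -0.32 without sorafenib day 14 replicate 6 or without the shallow library, and -0.69 without sorafenib day 14 replicate 5. Without the shallow library and water day 28 replicate 4 it was -0.16, with 27 of 32 negative.

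**Figure D4:**
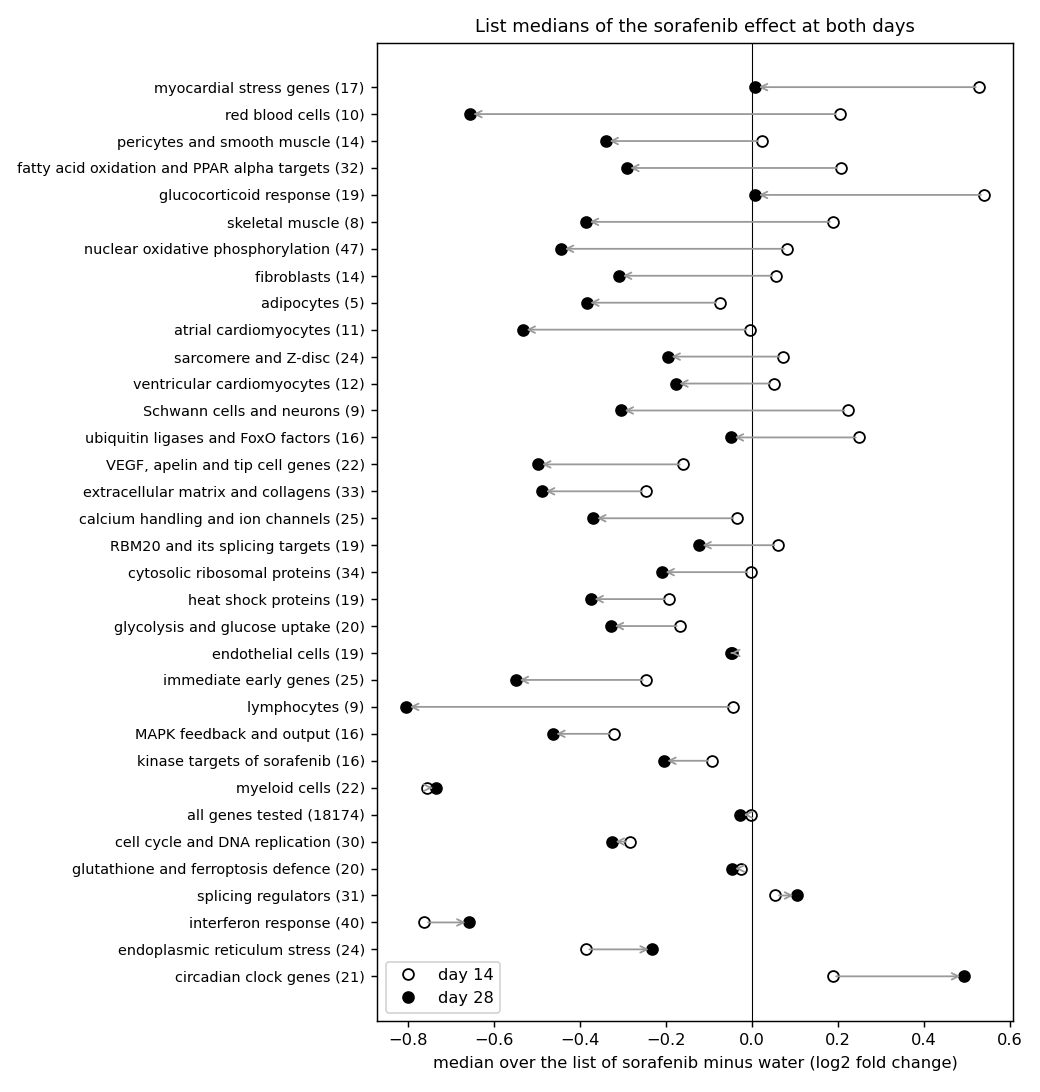
Median sorafenib effect (log2 fold change) over each gene list at day 14 (open) and day 28 (filled), ordered by the median difference, with the number of genes tested in brackets. The mesothelial list lies outside the axis and is left out. Myocardial stress genes go from 0.53 to 0.01 and clock genes from 0.19 to 0.49, while interferon and myeloid genes lie at -0.66 to -0.76 at both days.

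Clock genes formed the list with the largest positive median difference apart from the mesothelial markers, which are described below. Of 21 genes 17 had a positive difference, with a median of 0.23, and Ciart, Per3 and Dbp had an unadjusted p below 0.05. Ciart, a repressor within the clock, had levels of 14.0, 6.36 and 6.41 CPM with water and 10.4, 12.8 and 13.6 CPM with sorafenib at day 14. At day 28 it measured 3.83, 2.22 and 1.61 CPM with water and 10.1, 6.69 and 24.1 CPM with sorafenib. The value of 6.69 CPM is that of the shallow library and rests on 8 counts. The groups overlapped at day 14 and were apart at day 28. The water level fell between the days by 1.80 (adjusted p = 0.0209), and the level with sorafenib differed by 0.28 (adjusted p = 0.767). Its difference was 2.08 (interval 0.81 to 3.36, adjusted p = 0.999).

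Per3, a period gene of the clock, was at 87.3 to 123 CPM with water and 149 to 174 CPM with sorafenib at day 14, and at 12.1 to 38.6 and 63.5 to 89.7 CPM at day 28. Sorafenib libraries lay above water at both days, and the difference was 1.06 (interval 0.16 to 1.96). Dbp, a transcription factor driven by the clock, was at 45.9 to 109 and 86.6 to 124 CPM at day 14 and at 11.4 to 20.8 and 24.2 to 65.5 CPM at day 28, a difference of 1.18 (interval 0.17 to 2.18). Per2 had effects of 0.85 (SE 0.26) and 1.18 (SE 0.27) and a difference of 0.34 (interval -0.45 to 1.13). The labels used here give no hour of collection, and levels of these genes vary through the day, so its part in the result was not tested. Without sorafenib day 28 replicate 4, the library of highest Ciart, the median difference of the list was 0.13, the difference of Ciart was 1.36 and the difference of Dbp was 0.80.

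The clock's activators bind the E-box CACGTG, which reads the same on both strands. The window from 250 bases before to 50 bases after the start of each gene, from RefSeq on build GRCr8, was searched for it, and 16 clock genes had such a window. It was found in 4 of them, Ciart, Tef, Bhlhe40 and Bhlhe41, and in 6.42% of all 33469 windows. The window of Ciart, the clock gene with the largest difference, is shown because it holds 3 of these E-boxes, 93, 35 and 21 bases before the start, in capitals (chr2:186112197-186112496, minus strand). Per3 and Dbp have none in these windows. A match is a description of the letters and not a bound site.
Ciart: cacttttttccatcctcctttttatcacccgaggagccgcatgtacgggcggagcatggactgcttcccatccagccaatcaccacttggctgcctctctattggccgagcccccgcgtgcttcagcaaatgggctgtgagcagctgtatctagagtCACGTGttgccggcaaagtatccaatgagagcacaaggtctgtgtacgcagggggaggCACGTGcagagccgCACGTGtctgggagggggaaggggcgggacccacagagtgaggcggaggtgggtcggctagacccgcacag

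Most interferon response and myeloid genes had a negative sorafenib effect at both days, and their effects did not separate the days. Of 40 interferon response genes 38 were lower at day 14 and 36 at day 28, the median effects were -0.76 and -0.66, and 21 differences were positive against 19 negative. Of all 18174 genes tested, 9122 were lower with sorafenib at day 14 and 9534 at day 28. Of 22 myeloid markers all 22 were lower at each day, with median effects of -0.76 and -0.73. The median differences of 0.12 and -0.04 took both signs when single libraries were left out. Relative to the day's water mean, the interferon list was at -0.191 in sorafenib day 14 replicate 5, next to the lowest water library at -0.189. At day 28 its highest sorafenib library was at -0.537 and its lowest water library at -0.484. Myeloid means of sorafenib day 14 replicate 5 (-0.215) and of the shallow library (-0.041) lay among the water libraries of their days. Mx2, an interferon-induced GTPase, was the 1 gene of the 40 with an unadjusted p below 0.05, against 4.42% of all genes tested. Its effects were -0.74 (SE 0.38) and -2.22 (SE 0.43), and its exons overlap Tmprss2. Irf7, a master regulator of the response, had effects of -1.15 (SE 0.30) and -0.94 (SE 0.32). The summed level of the myeloid markers was 471 to 737 CPM with water and 307 to 487 CPM with sorafenib at day 14, and 653 to 1040 and 331 to 701 CPM at day 28, where the shallow library gave the highest sorafenib value.

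Immediate early genes were higher at day 28 than at day 14 in both treatments. Their median change was 1.43 in water and 1.30 in sorafenib libraries. Egr1, a transcription factor induced by growth factor signalling, had levels of 4.70, 8.14 and 26.3 CPM with water and 4.98, 1.84 and 2.79 CPM with sorafenib at day 14, and at 72.5, 83.6 and 76.3 CPM against 32.0, 29.3 and 41.9 CPM at day 28. Its difference of 0.88 had an interval of -0.59 to 2.36. Fos had a difference of 0.48 (interval -0.76 to 1.71). In the list 15 of 25 differences were negative, the median was -0.14, and 4 genes had an unadjusted p below 0.05, all negative: Btg2, Egr3, Fosb and Myc. The median took both signs when single libraries were left out, from -0.30 to 0.13, the latter without sorafenib day 14 replicate 5.

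Among markers of other cell types no gene passed the adjusted threshold for the difference. All 9 measured mesothelial markers, of the cells that cover the heart's surface, had a positive difference with a median of 4.51, and 7 had an unadjusted p below 0.05. Their summed level was 44.7, 118 and 103 CPM with water and 68.0, 26.3 and 29.3 CPM with sorafenib at day 14, and 34.7, 34.5 and 16.2 CPM against 32.1, 51.0 and 36.8 CPM at day 28. The most abundant member was Wt1, a transcription factor also found in other cells, which had a difference of 0.30 (interval -0.71 to 1.31), while Upk3b, Upk1b, Krt19, Muc16 and Bnc1 were at 0 in at least 1 library. Msln, mesothelin, had levels of 0.939, 20.8 and 14.9 CPM with water and 4.98, 0.517 and 0.303 CPM with sorafenib at day 14. At day 28 it was at 0.148 to 0.332 CPM with water and 1.21, 0.836 and 2.39 CPM with sorafenib. The value of 0.836 CPM rests on 1 count of the shallow library. Its difference was 5.52 (interval 2.13 to 8.91, edgeR adjusted p = 0.999). For Msln, water day 14 replicate 2 thus lay far below the other water libraries of day 14. Of 10 genes of red blood cells 9 had a negative difference with a median of -0.72. The globin Hbb was at 192 to 307 CPM with water and 281 to 343 CPM with sorafenib at day 14, and at 262 to 480 and 203 to 236 CPM at day 28. Negative differences were also found for 8 of 9 markers of Schwann cells and neurons (median -0.29), 6 of 8 of skeletal muscle (-0.47) and 4 of 5 of adipocytes (-0.38). Without the shallow library these medians were -0.36, -0.25 and -0.19. The most abundant members were Mb for skeletal muscle and Lpl for adipocytes, genes not confined to those cells, and Fabp4 is also on the endothelial list. Myl1 of skeletal muscle was at 0 to 2.56 CPM and Lep of adipocytes at 0 to 0.853 CPM. These lists therefore do not show a change of skeletal muscle or fat cells. The part of these cells in the other results was not tested.

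**Figure D5:**
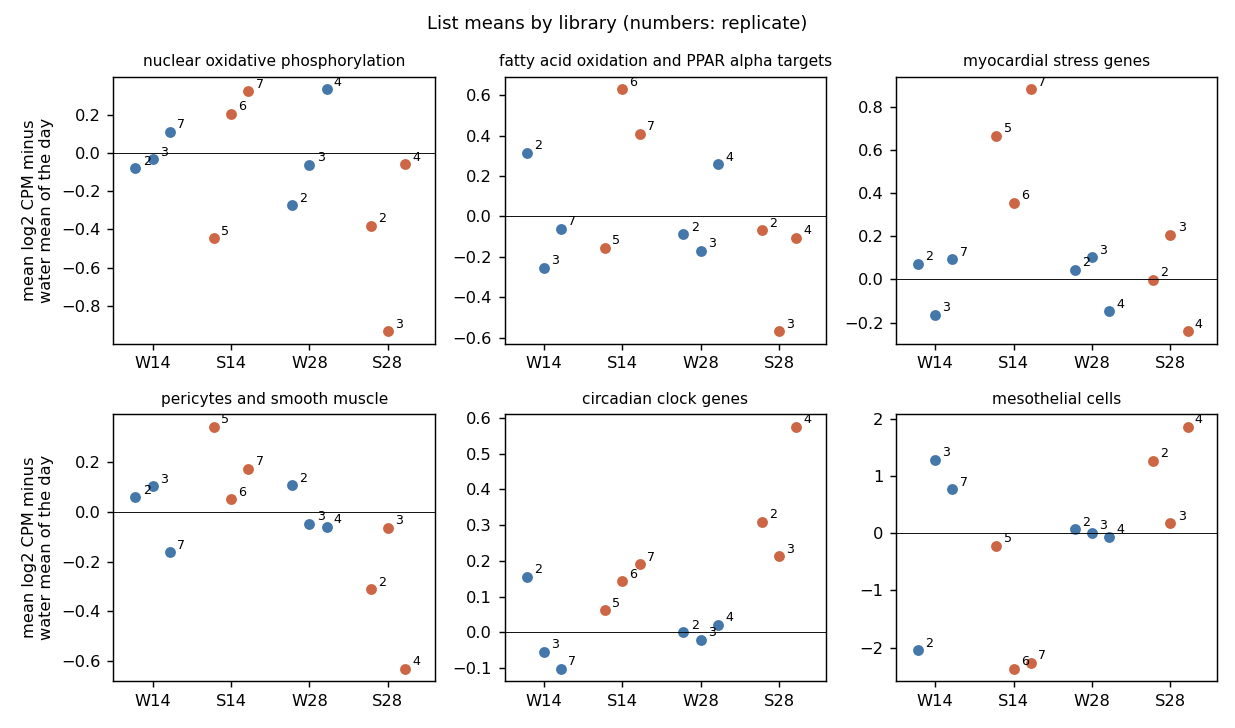
Mean log2 CPM of 6 gene lists in each library, relative to the water mean of the same day, for water (blue) and sorafenib (red), with replicate numbers beside the points. The lowest value for oxidative phosphorylation is the shallow library, sorafenib day 28 replicate 3, and water libraries of day 14 spread from -2.05 to 1.28 for mesothelial genes.

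Several genes chosen by name for a large sorafenib effect in earlier results lay near equal effects at both days. Dyrk2, a protein kinase, measured 148, 170 and 139 CPM with water and 56.6, 73.7 and 74.3 CPM with sorafenib at day 14. The levels at day 28 were 109, 138 and 135 CPM and 51.5, 63.5 and 66.4 CPM. It fell by 1.16 at day 14 (adjusted p = 0.0369) and fell by 1.08 at day 28 (adjusted p = 0.0275), with no overlap at either day, and the difference of 0.08 had an interval of -0.41 to 0.57. Spry4, an inhibitor of RAS and ERK signalling that ERK itself induces, had effects of -1.19 (SE 0.21) and -1.44 (SE 0.22) and a difference of -0.24 (interval -0.89 to 0.41). Of the 16 genes of MAPK feedback and output 13 were lower at each day, beside 9122 and 9534 of all 18174 genes tested. Their median difference was -0.09 (-0.199 to -0.001 with single libraries left out, the latter without water day 14 replicate 7). Epha4, an ephrin receptor, was the member with an unadjusted p below 0.05, at -1.06 (interval -1.91 to -0.20). Dusp4, a phosphatase of ERK, followed with a difference of 0.43 (interval -0.17 to 1.03).

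Nox4, a NADPH oxidase, had effects of -1.92 (SE 0.31) and -1.63 (SE 0.35) and a difference of 0.29 (interval -0.70 to 1.28). Fmo2, a flavin-containing monooxygenase, had effects of 1.63 (SE 0.28) and 1.06 (SE 0.27) and a difference of -0.56 (interval -1.38 to 0.25). For both genes sorafenib libraries lay apart from water libraries at both days. Nrep, a neuronal regeneration related protein, had effects of -1.05 (SE 0.23) and -1.64 (SE 0.25), and Prodh1, a proline dehydrogenase, of 0.76 (SE 0.21) and 1.43 (SE 0.21). Their differences were -0.58 (interval -1.29 to 0.12) and 0.67 (interval 0.04 to 1.30). An effect of the same sign at both days does not show that it was equal, since the intervals also hold sizeable differences.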

How the data were processed

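The deposited values are raw read counts per gene, made by the authors with featureCounts 2.0.1 in paired mode with no strand setting on RefSeq genes of mRatBN7.2, per the file headers. The submitters' processing notes also list STAR. The kit marks strand and the counts do not use it: exons of 5788 of 34322 genes overlap those of another gene. The tables of both days were joined by gene. In the table of day 14, 2 columns match no sample and were not used. Groups came from the labels.

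Counts were tested in 1 fit of all 4 groups with edgeR 4.0.16 (R 4.3.3): filterByExpr, TMM normalization, robust quasi-likelihood test, Benjamini-Hochberg adjustment over all genes tested, threshold 0.05. CPM values are TMM-normalized, and SE is the log2 fold change over the root of the F statistic. Alternatives used DESeq2 1.42.0, limma 3.58.1, other scalings and filters, and fewer libraries. Code was tested on simulated data. Named genes are the 10 of smallest p per direction with a mean of at least 5 CPM and a symbol, the 2 of smallest p in lists described, and genes fixed by name. The members, the 34 lists and the rule were chosen with earlier results of these data known. List members with an unadjusted p below 0.05 are also named. A few genes that these rules select are not reported here. The labels do not say what the replicate numbers mark, and the numbers were not used as pairs. Every printed interval is a 95% interval.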

Additional observations from a re-analysis of the deposited data

How the results depend on the processing

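The count of genes past the threshold was 0 in the report, 9 with DESeq2, and 0 to 1 when each of the 12 libraries was left out in turn, the 1 being Ngdn without water day 14 replicate 2. It was 0 in the other alternatives, which were RLE or upper-quartile factors, no filter, 1 CPM in 3 libraries, no robust dispersion, voom with library weights, and 2 settings added after seeing the data that left out the shallow library with sorafenib day 14 replicate 5 or with water day 28 replicate 4. With the replicate number as a block it was 0 (smallest adjusted p 0.107), and the difference of Dbp was 0.11 and the difference of Ciart 1.27 there. The labels do not say what the numbers mark. Over 8 same-numbered pairs the correlation of deviations ran from -0.057 to 0.163, and over other pairs from -0.253 to 0.255. Within day 28 it was 0.115, 0.002 and 0.163 for same-numbered pairs and -0.161 to 0.050 for the others. With so few libraries these values cannot decide whether the numbers pair samples. All 20 genes named by smallest p kept their sign in all 22 alternatives, and so did the medians of 20 of the 34 lists. These genes were chosen for a small p on the same counts, and the alternatives reuse the same libraries. Their signs could thus hardly turn, and nothing is read from this. The sign turned in at least 1 alternative for 11 of the 77 genes followed. Under the replicate block Dyrk2 had -0.17, Spry4 0.095, Nox4 -0.26, Rbm20 0.054 and Myh6 0.060. With voom Dyrk2 had -0.095 and Per2 -0.050. Without the shallow library and sorafenib day 14 replicate 5, Dyrk2 had -0.053 and Myh6 0.005. Without the shallow library and water day 28 replicate 4, Rbm20 had 0.021, Ttn 0.068, Myh6 0.36 and Wt1 -0.34. Leaving out single libraries gave -0.027 to 0.19 for Dyrk2, -0.13 to 1.38 for Egr1, -0.093 to 1.08 for Fos, -0.26 to 0.50 for Irf7, -0.24 to 0.16 for Myh6, -0.031 to 0.57 for Per2, -0.26 to 0.024 for Rbm20 and -0.05 to 0.61 for Wt1. The cause was not tested. Depth limits low genes most, since in the shallow library values near 1 CPM rest on 1 count.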

Other observations

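Sorafenib libraries lay wholly on opposite sides of the water libraries at the 2 days in 58 genes (0.319% of genes tested). Among the 11730 genes with a mean of at least 5 CPM there were 27. Of these, 15 were above water at day 14 and below it at day 28, and 12 the reverse. Whether such counts exceed those of a random order of libraries was not tested. Besides Fabp4, Kcna4 and Ero1b, genes with a symbol and an unadjusted p below 0.01 for the difference included Tmem8b at 0.74, Lgr6 at -0.68 and Prr5 at -0.92, none past the adjusted threshold in edgeR's test. Lgr6 is a receptor for R-spondins. They were chosen after their values were seen.

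Endoplasmic reticulum stress genes were lower with sorafenib at both days, 21 of 24 at day 14 and 18 at day 28, with a median difference of 0.16, which was -0.03 without sorafenib day 28 replicate 4 and -0.02 without water day 14 replicate 7. Chac1, a glutathione-degrading enzyme, was the member with an unadjusted p below 0.05, at 2.08 (interval 0.21 to 3.94), and its level was 0.060 to 1.93 CPM over the libraries. Heat shock protein genes were lower at both days in 16 and 19 of 19 genes, with a median difference of -0.19, which was -0.06 without the shallow library and -0.42 without sorafenib day 28 replicate 4. Genes of cell cycle and DNA replication were lower in 27 and 22 of 30, and their median difference of -0.01 took both signs when single libraries were left out. Beside the counts of these 3 lists, 9122 of all 18174 genes tested were lower at day 14 and 9534 at day 28.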
